A study of Mus musculus with 8 samples.

Results

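The 10 genes described here are the core of the NRF2 antioxidant response: Nfe2l2, which encodes NRF2, Keap1, Nqo1, Hmox1, Gclc, Gclm, Txnrd1, Srxn1, Slc7a11 and Gsr. Their symbols were matched to the table by name, and all 10 of 10 were found among the 16940 genes of the deposited table. All 10 passed the minimum mean of 10 normalized read counts and were among the 15818 genes tested. Newly made RNA was measured by transient transcriptome sequencing (TT-seq), in which cells take up 4-thiouridine for a short pulse and only the labelled RNA is captured and sequenced. The pulse was 15 min with 400 µM 4-thiouridine.

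The cells were E14 mouse embryonic stem cells, and every group carried CTCF with an auxin-inducible degron (AID), a tag through which the auxin IAA brings about removal of the tagged protein. CTCF is the DNA-binding protein that anchors chromatin loops. The untreated control was the "overexpressed control" line without IAA, and the treated control was the same line after 12 h of IAA. One further line overexpressed wild-type CTCF and another a CTCF labelled as mutated, with no mutation given, and IAA was added to both for 12 h. There were 2 replicates in each of the 4 groups. All cells grew without serum in medium with LIF, PD0325901, CHIR99021, N2, B27 and β-mercaptoethanol, a reducing agent that was present in every group. What the control line overexpressed, and whether a line was 1 clone, is not given in the labels.

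The design sets limits on what can be asked. IAA can be compared with no IAA in the control line only, because no untreated library of either CTCF overexpression line was analysed here. Those lines can be set against the treated control, which differs in the overexpressed gene, and against the untreated control, which differs in both the gene and IAA. No line without the degron received IAA here, so an effect of IAA itself and an effect of losing CTCF cannot be told apart.

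NRF2 is a transcription factor that is made constantly and destroyed constantly. KEAP1 binds it and hands it to a CUL3 ubiquitin ligase, until oxidants or electrophiles modify cysteines of KEAP1 and let NRF2 accumulate without more of its RNA being made. With a small MAF protein, NRF2 then binds the antioxidant response element (ARE) and raises genes for glutathione synthesis, thioredoxin recycling and detoxification. For this reason the transcription of the targets, rather than that of Nfe2l2, is the usual readout of the pathway.

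The sequence around the start sites was read to show where the letters of the ARE core, TGACNNNGC, fall. RefSeq on GRCm38.p6 gave windows of 250 bases before to 50 bases after a start for 7 of the 10 genes, 9 windows in all, and both strands were searched. The core was found in 4 of the 9 windows, of Nfe2l2, Gclm, Txnrd1 and Srxn1, against 12.4% of all 32851 mouse windows. These 4 stretches are shown because they hold the match (in capitals). The 100 bases before the start of Nqo1 are shown as well because this gene had the widest span of group means among the 10 (1.56-fold). Its whole window had no match. Sequence beyond the windows was not searched, and Hmox1, Gclc and Gsr had no window. All stretches are written 5′ to 3′ on the strand of the gene.
Nfe2l2, chr2:75704875-75704913, minus strand, first matched base at -240: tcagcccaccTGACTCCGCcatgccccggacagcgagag
Gclm, chr3:122245403-122245451, plus strand, first matched base at -134: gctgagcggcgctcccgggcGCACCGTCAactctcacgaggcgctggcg
Txnrd1, the second of 3 windows, chr10:82859094-82859142, plus strand, first matched base at -92: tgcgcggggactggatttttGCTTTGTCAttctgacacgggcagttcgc
Srxn1, chr2:152105542-152105571, plus strand, first matched base at 29: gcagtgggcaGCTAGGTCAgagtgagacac
Nqo1, chr8:107403206-107403305, minus strand, no match: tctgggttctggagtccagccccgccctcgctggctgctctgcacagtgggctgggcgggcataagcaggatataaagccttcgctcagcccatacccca
In Nfe2l2 the core reads along the strand of the gene, and in Gclm, Txnrd1 and Srxn1 it reads on the opposite strand. A match describes these letters only, and NRF2 binding was not measured.

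The libraries held 15671114 to 21561141 reads over the listed genes, fewest in the treated control, and 1 read was worth 0.836 to 1.19 normalized read counts. Log2 values of the libraries correlated across genes with a Pearson's r of 0.995 to 0.996 within groups and 0.983 to 0.990 between groups. All 8 of 8 embryonic stem cell markers were listed, with summed levels of 50300 to 51170 in the untreated control, 53110 to 54440 in the treated control, 57660 to 61540 with wild-type CTCF and 57420 to 60160 with mutated CTCF. With IAA in the control line 2 of the 8 rose and 2 fell, where 19.4% of all tested genes rose and 18.4% fell, the shares against which the other marker counts with IAA stand as well. Tfcp2l1 went from 13440 to 18580 normalized read counts and Tdgf1 from 2684 to 2947, Esrrb from 15460 to 13990 and Zfp42 from 10020 to 9012. Against the treated control, 5 of the 8 were higher with wild-type CTCF and 0 lower, where 21.5% of all tested genes were higher and 10% lower. With mutated CTCF 6 were higher and 0 lower, where 22% were higher and 12.4% lower. Of 7 fibroblast or feeder markers 0 were listed. Of 5 primitive endoderm markers 3 were listed (Gata4, Gata6 and Pdgfra, not Sox17 or Sox7), with sums of 185.5 to 216.3, 261.8 to 304.9, 214.2 to 241.8 and 239.2 to 245.5 in the same order of groups, and with IAA in the control line 2 of the 3 rose and 1 fell. Pdgfra rose from 19.15 to 67.77 normalized read counts and Gata4 from 104.4 to 164.4, and Gata6 fell from 77.44 to 51.14. With wild-type and mutated CTCF Pdgfra was at 62.35 and 61.96, Gata4 at 113.4 and 136.8, and Gata6 at 52.2 and 43.58. Of 4 markers of primed, differentiating cells 2 were listed (Otx2 and Dnmt3b, not Fgf5 or Pou3f1), with sums of 542.5 to 557.7, 674.2 to 681.9, 710.8 to 793.8 and 606.0 to 621.7. With IAA in the control line Dnmt3b rose from 477.6 to 626.5 normalized read counts and Otx2 fell from 72.46 to 51.59. Both were lower with mutated than with wild-type CTCF, as were 18.4% of all tested genes. The part of these cell states in the results was not tested. The labels do not say that replicates were separate cultures, so p-values measure only the spread between these samples, and the labels name no batch. In bulk RNA, fewer cells making a transcript and less transcript per cell cannot be told apart.

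Changes were wide-ranging in this series, which sets the background for the 10 genes. All tests are limma fits on log2(value + 1) over the 15818 genes, with a Benjamini-Hochberg adjusted p-value under 0.05 as the threshold. The share of all tested genes past it was 37.7% for IAA in the control line, 31.6% between wild-type CTCF and the treated control, 34.3% between mutated CTCF and the treated control, and 34.7% between the mutated and wild-type lines. Against the untreated control it was 43.2% in the wild-type CTCF line and 37.8% in the mutated one. Each group enters several comparisons, so the comparisons share libraries and are not independent of one another. The balance of higher and lower genes depended on scaling and on single libraries. With IAA in the control line it was 3062 higher and 2905 lower as deposited, 2568 and 4100 when libraries were set to the same total, and 2500 and 1786 without the second untreated control library.

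IAA in the control line raised 7 of the 10 genes and lowered 0, where 19.4% of all tested genes rose and 18.4% fell. The 7 were Nqo1, Gclm, Srxn1, Slc7a11, Gsr, Txnrd1 and Gclc, and the 3 that did not pass the test were Nfe2l2, Keap1 and Hmox1. The median log2 fold change of the 10 was 0.31 (range 0.04 to 0.62), beside 0.00 over all genes tested. The largest changes, of Nqo1 and Slc7a11, were 1.54-fold. In 7 of the 10 both treated libraries lay above both untreated ones, as they did for 34.3% of all tested genes. They were the same 7 that passed the test, which uses the same libraries. With equal totals, 6 of the 10 rose and 0 fell, since Gclc was lost.

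**Figure D1:**
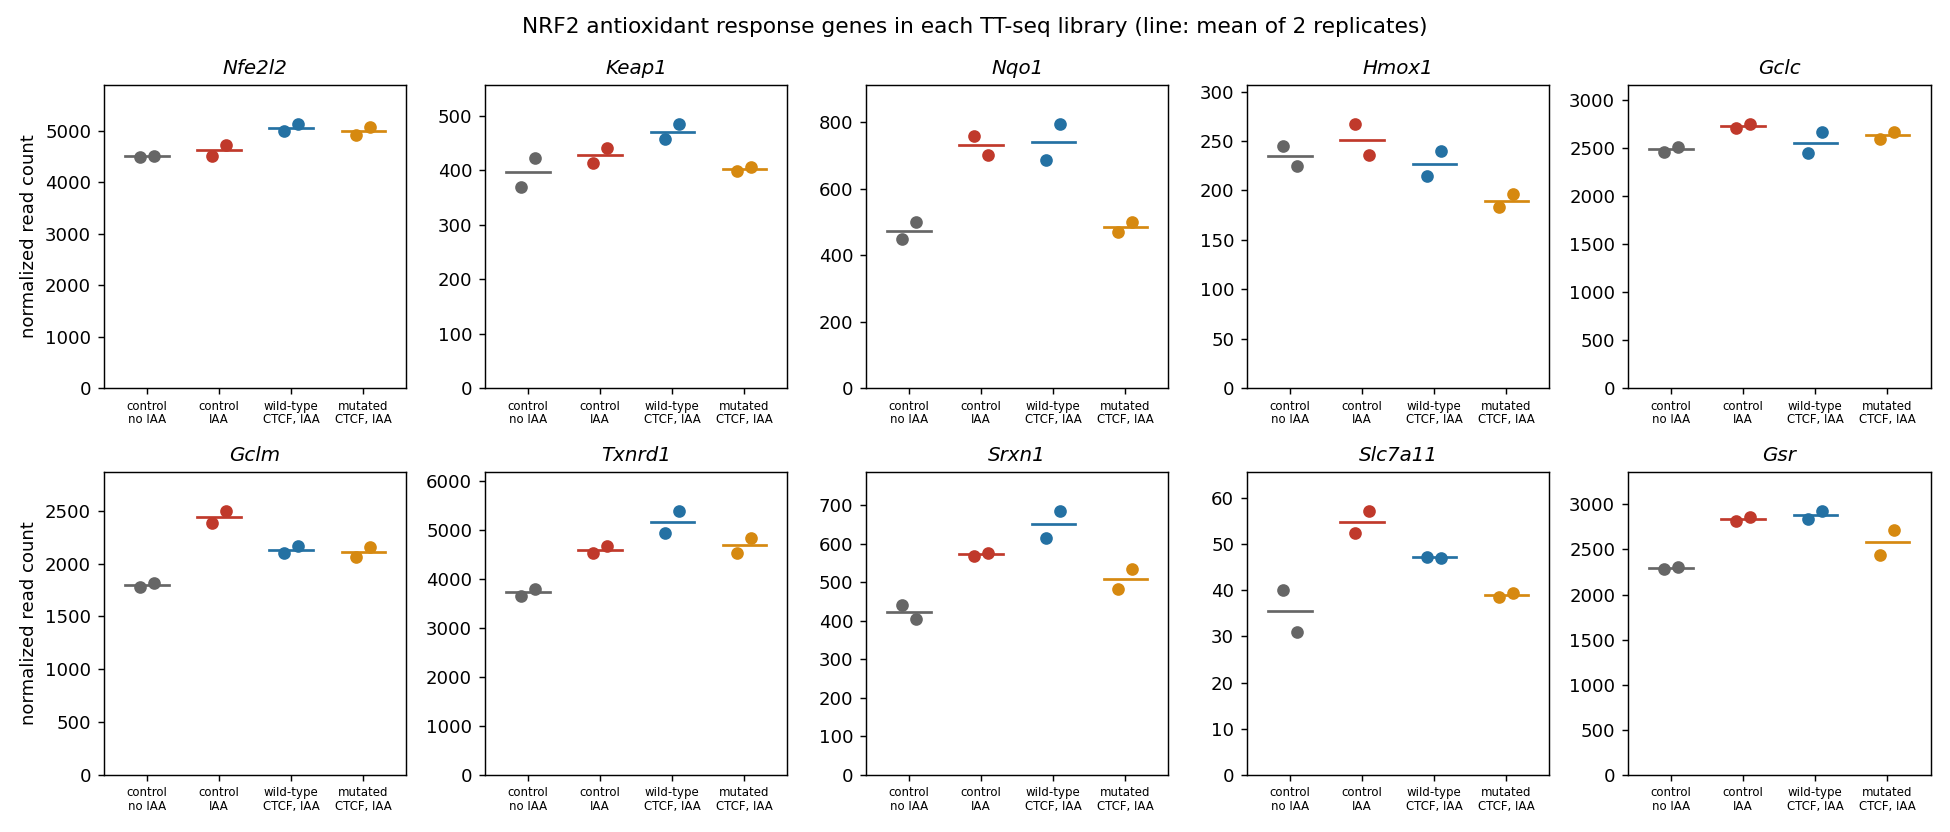
Normalized read count (vertical axes, each from 0) of the 10 genes in each of the 8 TT-seq libraries, by group. Points are libraries and lines are means of 2 replicates. Nqo1 lay at 687.2 to 793.8 in the treated control and wild-type CTCF libraries and at 448.9 to 499.2 in the other 4.

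The regulators come first. Nfe2l2 (ENSMUSG00000015839.6, GRCm38 chromosome 2, 75675513 to 75704641, minus strand), the gene of NRF2 itself, had 4497 and 4518 normalized read counts in the untreated control and 4514 and 4728 in the treated control. It had 4991 and 5127 with wild-type CTCF and 4924 and 5085 with mutated CTCF. The control libraries with and without IAA overlapped, and all 4 libraries of the overexpression lines lay above them. The log2 fold change with IAA was 0.04 (SE 0.036, 95% interval -0.04 to 0.11, adjusted p = 0.48), and it turned to -0.02 with equal totals. Against the treated control, Nfe2l2 was higher by 0.13 with wild-type CTCF (adjusted p = 0.0053) and by 0.12 with mutated CTCF (adjusted p = 0.012). Both calls were lost after median-of-ratios rescaling, at 0.07 (adjusted p = 0.064) and 0.06 (adjusted p = 0.11). They were also lost without the first treated control library, at 0.10 (adjusted p = 0.13) and 0.08 (adjusted p = 0.2), and without the second library of the overexpression line, at 0.11 (adjusted p = 0.069) and 0.09 (adjusted p = 0.15).

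Keap1 (ENSMUSG00000003308.15, chromosome 9, 21229730 to 21239361, minus strand) encodes the sensor that holds NRF2 down. It had 369.4 and 423.3 normalized read counts in the untreated control, 414.5 and 442.1 in the treated control, 457.2 and 484.6 with wild-type CTCF and 399.1 and 406.3 with mutated CTCF. Untreated and treated control libraries overlapped, and the change of 0.11 on the log2 scale did not pass (SE 0.081, adjusted p = 0.28). The wild-type CTCF libraries were the highest of the 8, and Keap1 was lower with mutated than with wild-type CTCF by a log2 difference of -0.22 (SE 0.081, adjusted p = 0.029). That call was lost without the second wild-type CTCF library (-0.18, adjusted p = 0.16) and without either mutated CTCF library (-0.21, adjusted p = 0.11 and -0.24, adjusted p = 0.066). Keap1 overlaps Gm16754, which is also in the table, on the opposite strand. The libraries are strand-specific, but whether counting used the strand is not given in the sources used here.

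Nqo1 (ENSMUSG00000003849.8, chromosome 8, 107388225 to 107403206, minus strand) encodes a quinone reductase and is the marker most often read for NRF2 activity. It had 448.9 and 499.1 normalized read counts in the untreated control and 760.0 and 701.7 in the treated control. It had 687.2 and 793.8 with wild-type CTCF, but 470.2 and 499.2 with mutated CTCF. The libraries thus fell at 2 levels, with the mutated CTCF libraries overlapping the untreated control. IAA raised Nqo1 1.54-fold in the control line (log2 fold change 0.62, SE 0.075, adjusted p = 7.2e-09). Mutated CTCF lay 1.52-fold below wild-type CTCF (log2 difference -0.61, SE 0.075, adjusted p = 2.3e-08) and 1.51-fold below the treated control (-0.59, SE 0.075, adjusted p = 4.4e-08). All 3 calls were kept under every alternative setting run, and the log2 difference between mutated CTCF and the untreated control was 0.03 (95% interval -0.12 to 0.19, adjusted p = 0.76).

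Hmox1 (ENSMUSG00000005413.8, chromosome 8, 75093621 to 75100589, plus strand) encodes heme oxygenase 1, which NRF2 raises and the heme-sensing repressor BACH1 holds down. It had 244.9 and 225.0 normalized read counts in the untreated control, 266.8 and 235.4 in the treated control, 214.2 and 239.6 with wild-type CTCF and 182.8 and 196.7 with mutated CTCF. The first 3 groups overlapped and the mutated CTCF libraries lay below all of them. The log2 fold change with IAA was 0.09 (SE 0.11, 95% interval -0.12 to 0.31, adjusted p = 0.52). Hmox1 fell by 0.40 on the log2 scale with mutated CTCF relative to the treated control (SE 0.11, adjusted p = 0.0029). Without the first treated control library that value was -0.31 and did not pass (adjusted p = 0.076). Against wild-type CTCF the difference of -0.26 did not pass (adjusted p = 0.059), and after either rescaling it did (-0.25, adjusted p = 0.048 and -0.26, adjusted p = 0.046), as it did without the first wild-type CTCF library (-0.34, adjusted p = 0.035).

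Glutathione is made from cystine that the cell imports, joined to glutamate by glutamate-cysteine ligase. Slc7a11 (ENSMUSG00000027737.10, chromosome 3, 49892526 to 50443614, minus strand) encodes the cystine importer xCT. It had 40.12 and 31.03 normalized read counts in the untreated control, 52.41 and 57.19 in the treated control, 47.21 and 47.07 with wild-type CTCF and 38.66 and 39.54 with mutated CTCF. These values rest on 36 to 54 reads per library, the fewest of the 10 genes. The treated control was above the other groups without overlap, and the log2 fold change with IAA was 0.62 (SE 0.22, 95% interval 0.18 to 1.06, adjusted p = 0.021). It did not pass without the second untreated control library (0.44, adjusted p = 0.22) or without the second treated control library (0.56, adjusted p = 0.11).

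Gclc and Gclm encode the catalytic and the modifier subunit of glutamate-cysteine ligase. Gclm (ENSMUSG00000028124.15, chromosome 3, 122245557 to 122270732, plus strand) had 1774 and 1812 normalized read counts in the untreated control and 2384 and 2496 in the treated control. It had 2096 and 2164 with wild-type CTCF and 2059 and 2153 with mutated CTCF. The treated control was the highest group, the untreated control the lowest, and both overexpression lines lay between them and overlapped each other. IAA raised Gclm 1.36-fold in the control line (log2 fold change 0.44, SE 0.045, adjusted p = 1.3e-10). Relative to the treated control it was lower by -0.20 with wild-type CTCF (adjusted p = 0.0009) and by -0.21 with mutated CTCF (adjusted p = 0.00027), and the 2 lines differed by -0.02 (95% interval -0.11 to 0.07, adjusted p = 0.81). The table also lists Gm17494, which overlaps Gclm on the opposite strand.

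The catalytic subunit changed less. Gclc (ENSMUSG00000032350.9, chromosome 9, 77754535 to 77794485, plus strand) had 2466 and 2511 normalized read counts in the untreated control, 2715 and 2749 in the treated control, 2449 and 2665 with wild-type CTCF and 2598 and 2675 with mutated CTCF. Only the treated control stood clear of every other group. Its log2 fold change with IAA was 0.13 (SE 0.044, adjusted p = 0.013), which was lost with equal totals (0.08, adjusted p = 0.06) and without the first untreated control library (0.12, adjusted p = 0.092). It was also lost without the first (0.14, adjusted p = 0.051) or the second (0.13, adjusted p = 0.087) treated control library. Wild-type CTCF differed from the treated control by -0.10 (adjusted p = 0.087), which passed under either rescaling (-0.15, adjusted p = 0.0015 and -0.13, adjusted p = 0.0058) and without the second wild-type CTCF library (-0.16, adjusted p = 0.02).

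Gsr (ENSMUSG00000031584.16, chromosome 8, 33652523 to 33698163, plus strand) encodes glutathione reductase, which returns oxidized glutathione to its reduced form. It had 2279 and 2304 normalized read counts in the untreated control, 2818 and 2857 in the treated control, 2834 and 2925 with wild-type CTCF and 2440 and 2718 with mutated CTCF. The treated control and wild-type CTCF overlapped above the rest, and the mutated CTCF libraries lay below them and above the untreated control. IAA raised Gsr 1.24-fold in the control line (log2 fold change 0.31, SE 0.045, adjusted p = 4.3e-07). The log2 difference between mutated and wild-type CTCF was -0.16 (SE 0.045, adjusted p = 0.0045), and without the first mutated CTCF library, the lower of the pair, it was -0.08 and did not pass (adjusted p = 0.26).

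Txnrd1 and Srxn1 serve the thioredoxin and peroxiredoxin cycle. Txnrd1 (ENSMUSG00000020250.10, chromosome 10, 82833951 to 82897712, plus strand), which encodes thioredoxin reductase 1, had 3643 and 3801 normalized read counts in the untreated control and 4518 and 4666 in the treated control. It had 4939 and 5381 with wild-type CTCF and 4532 and 4831 with mutated CTCF. All 6 libraries with IAA were above both without it. IAA raised Txnrd1 1.23-fold in the control line (log2 fold change 0.30, SE 0.04, adjusted p = 7.6e-08). With wild-type CTCF it was higher again, by 0.17 over the treated control (adjusted p = 0.0015; 0.11, adjusted p = 0.098, without the second wild-type CTCF library). Mutated CTCF lay below wild-type CTCF by -0.14 (adjusted p = 0.0062), which did not pass without the second wild-type CTCF library (-0.08, adjusted p = 0.23) or the first mutated CTCF library (-0.09, adjusted p = 0.17). Gm38560 overlaps Txnrd1 on the opposite strand in the table.

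Srxn1 (ENSMUSG00000032802.8, chromosome 2, 152105516 to 152111376, plus strand) encodes sulfiredoxin, which repairs over-oxidized peroxiredoxins. It had 442.2 and 404.3 normalized read counts in the untreated control, 569.4 and 575.2 in the treated control, 616.3 and 684.7 with wild-type CTCF and 482.7 and 533.8 with mutated CTCF. The 4 groups did not overlap at all, with wild-type CTCF highest, then the treated control, then mutated CTCF. IAA raised Srxn1 1.35-fold in the control line (log2 fold change 0.44, SE 0.075, adjusted p = 1e-05). Mutated CTCF lay 1.28-fold below wild-type CTCF (log2 difference -0.36, SE 0.075, adjusted p = 0.00026). Neither overexpression line passed against the treated control, at 0.18 (adjusted p = 0.061) with the wild type and -0.17 (adjusted p = 0.073) with the mutant. The former passed without the first wild-type CTCF library (0.26, adjusted p = 0.02). The latter passed under either rescaling (-0.22, adjusted p = 0.0098 and -0.20, adjusted p = 0.021) and without the second mutated CTCF library (-0.25, adjusted p = 0.037). Both of the calls, with IAA and between the lines, were kept under every alternative run.

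**Figure D2:**
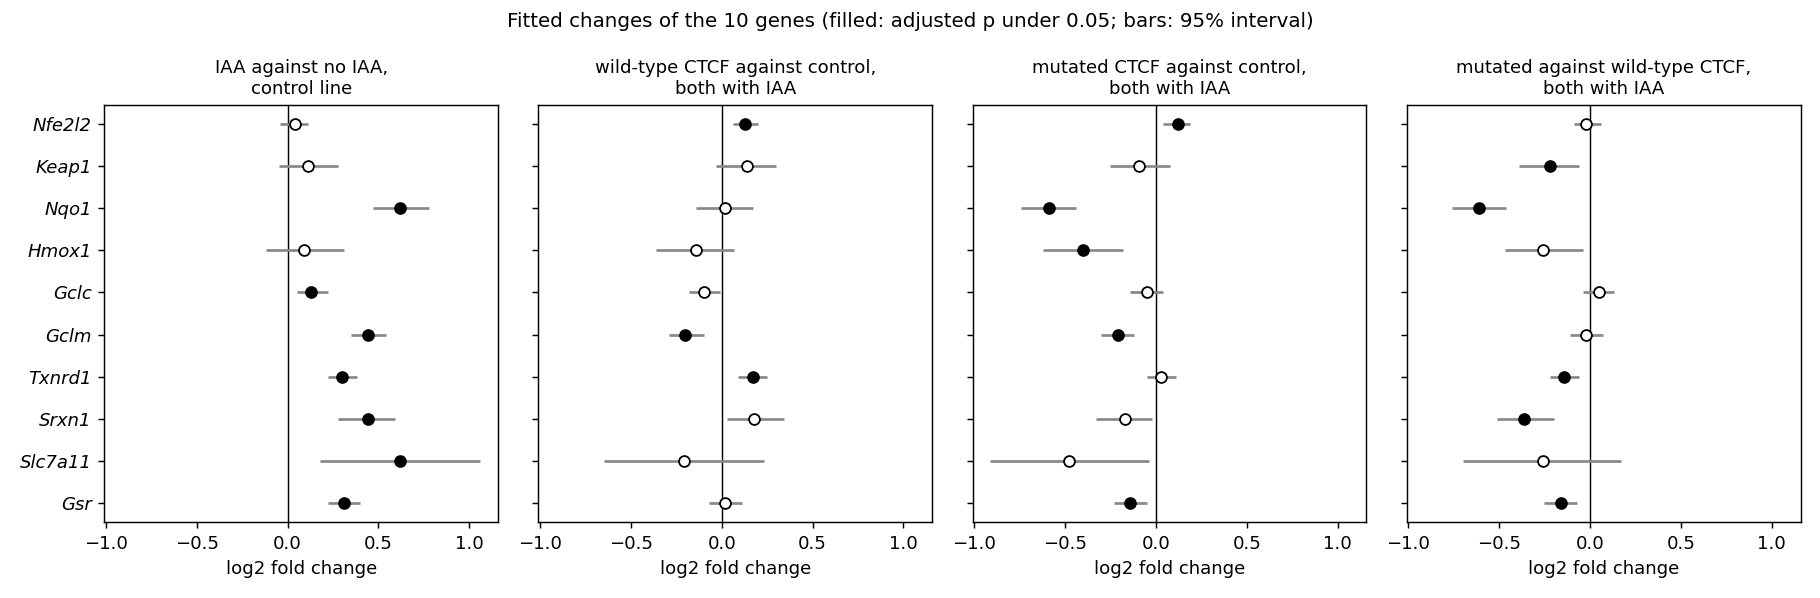
Log2 fold change (horizontal axis, log2(value + 1) scale) of the 10 genes in 4 comparisons, with 95% intervals; filled points have an adjusted p under 0.05 by limma. With IAA in the control line 7 points are filled and right of 0, and between mutated and wild-type CTCF 5 are filled and left of 0.

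The order of the groups differed from gene to gene. The untreated control was the lowest group for 9 of the 10 genes, Hmox1 being the exception, but for Nfe2l2, Keap1, Nqo1, Gclc and Slc7a11 its libraries overlapped those of the next group and the step did not pass the test. Wild-type CTCF was highest for Nfe2l2, Keap1, Nqo1, Txnrd1, Srxn1 and Gsr, and the treated control was highest for Hmox1, Gclc, Gclm and Slc7a11. The step from the highest group to the next passed for Gclm and Txnrd1 only. The middle step passed for Nfe2l2, Nqo1 and Gsr only, and for Keap1, Hmox1, Gclc and Slc7a11 no step between neighbouring groups passed. From lowest to highest group mean the span was 1.10-fold for Gclc, 1.12-fold for Nfe2l2 and 1.19-fold for Keap1, and at most 1.56-fold, for Nqo1.

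The comparison of each overexpression line with the treated control asks how the response stands once CTCF is supplied from another copy. With wild-type CTCF 2 of the 10 genes were higher, Nfe2l2 and Txnrd1, and 1 was lower, Gclm, where 21.5% of all tested genes were higher and 10% lower. The median log2 difference was 0.02, beside 0.06 over all genes. Scaling changed the balance: after median-of-ratios rescaling 1 was higher and 2 were lower, with 2547 higher and 2513 lower over all genes against 3407 and 1584 as deposited. For Nqo1 the difference was 0.02 (95% interval -0.14 to 0.17) and for Gsr 0.02 (95% interval -0.07 to 0.11), and both turned negative under either rescaling. Over all genes the counts were 2686 higher and 932 lower without the second treated control library, 2215 and 1176 without the first, and 1957 and 1313 without the second wild-type CTCF library. None of the 3 calls held under every alternative, and Gclm was lost only without the mean-variance trend (adjusted p = 0.06).

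With mutated CTCF 1 of the 10 genes was higher than in the treated control, Nfe2l2, and 4 were lower, Nqo1, Hmox1, Gclm and Gsr, where 22% of all tested genes were higher and 12.4% lower. The median log2 difference was -0.16, beside 0.06 over all genes. After median-of-ratios rescaling 0 were higher and 6 lower, beside 2708 higher and 2682 lower over all genes (3473 and 1960 as deposited). Nqo1 and Gclm held under every alternative. Gsr, at -0.14 (adjusted p = 0.013), was lost without the first (-0.15, adjusted p = 0.053) or second (-0.13, adjusted p = 0.092) treated control library and without the first mutated CTCF library (-0.06, adjusted p = 0.41). The count fell from 5 to 2 without the first treated control library.

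The direct comparison sets the overexpression lines side by side under the same IAA treatment. Clone and level of the overexpressed CTCF were not analysed here, so a difference between the lines cannot be assigned to the mutation alone. Of the 10 genes 5 were lower with mutated than with wild-type CTCF, namely Nqo1, Srxn1, Keap1, Gsr and Txnrd1, and 0 were higher, where 18.4% of all tested genes were lower and 16.3% higher. The median log2 difference was -0.19, beside -0.01 over all genes. In 7 of the 10 both mutated CTCF libraries lay below both wild-type ones, as they did for 33.5% of all tested genes. The count was 3 without the second wild-type CTCF library and 2 without the first mutated CTCF library. Nqo1 and Srxn1 were the 2 that held under every alternative. Gclm and Gclc did not pass, at -0.02 (95% interval -0.11 to 0.07) and 0.05 (95% interval -0.04 to 0.13) for the subunits of the enzyme that starts glutathione synthesis.

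Against the untreated control, the only group without IAA, 7 of the 10 genes were higher with wild-type CTCF, where 27.6% of all tested genes were higher and 15.6% lower. These were Nqo1, Srxn1, Txnrd1, Gsr, Gclm, Keap1 and Nfe2l2. The largest were Nqo1 (1.56-fold, adjusted p = 4.3e-09) and Srxn1 (1.54-fold, adjusted p = 1.1e-08). Keap1, higher by 0.25 (adjusted p = 0.012), was lost without the first untreated control library (0.15, adjusted p = 0.25) or the second wild-type CTCF library (0.21, adjusted p = 0.089). Equal totals also left it short of the threshold (0.17, adjusted p = 0.061), so that 6 of the 10 were higher. Nfe2l2, higher by 0.17 (adjusted p = 0.00027), was lost without the mean-variance trend (adjusted p = 0.05).

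With mutated CTCF 5 of the 10 were higher than in the untreated control, Txnrd1, Srxn1, Gclm, Gsr and Nfe2l2, and 1, Hmox1, was lower (-0.31, adjusted p = 0.021), where 24% of all tested genes were higher and 13.7% lower. Txnrd1 was higher by 0.33 in the mutated CTCF line (adjusted p = 1.3e-08) and Gclm by 0.23 (adjusted p = 6.5e-05), and these 2 calls held under every alternative. Srxn1, higher by 0.26 (adjusted p = 0.005), was lost without the second untreated control library (0.20, adjusted p = 0.12) or the second mutated CTCF library (0.19, adjusted p = 0.11). Gsr, higher by 0.17 (adjusted p = 0.0026), was lost without the second mutated CTCF library (0.09, adjusted p = 0.21), and Hmox1 without the first untreated control library (-0.25, adjusted p = 0.2) or the first mutated CTCF library (-0.25, adjusted p = 0.13). With equal totals 3 of the 10 were higher and 1 was lower: Gsr (0.08, adjusted p = 0.08) and Nfe2l2 (0.07, adjusted p = 0.072, from 0.15, adjusted p = 0.00094) were lost. Scaling moved the balance of all genes against the untreated control as well, from 4367 higher and 2461 lower to 3221 and 3854 with equal totals in the wild-type CTCF line, and from 3801 and 2174 to 2593 and 3420 in the mutated one. Without the second untreated control library they were 3638 and 1462, and 3189 and 1411. The lines differ from the untreated control in the overexpressed gene as well as in IAA, so these values are not the effect of IAA within a line.

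**Figure D3:**
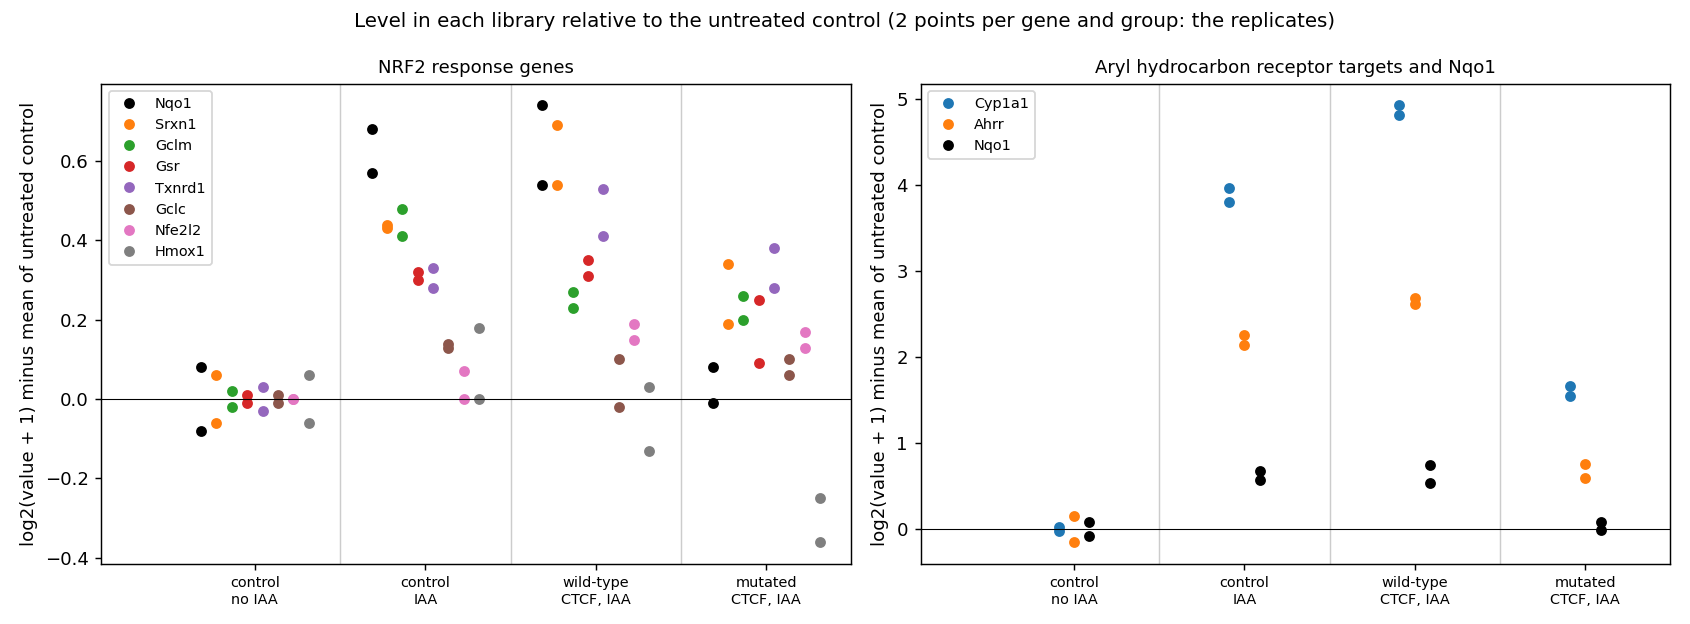
Log2(value + 1) in each library minus the mean of the untreated control (vertical axes), for 8 of the 10 genes at left and for Cyp1a1, Ahrr and Nqo1 at right; each gene has 2 points per group, its replicates. Nqo1, Cyp1a1 and Ahrr are high in the treated control and wild-type CTCF libraries and lower with mutated CTCF, where Nqo1 is at -0.01 and 0.08.

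Nqo1 is also a known target of the aryl hydrocarbon receptor (AHR), a ligand-activated factor for which many indole compounds are ligands and whose most used marker is Cyp1a1. Cyp1a1 had 9.194 and 9.482 normalized read counts in the untreated control, 160.8 and 144.1 in the treated control, 292.0 and 313.5 with wild-type CTCF and 29.25 and 31.63 with mutated CTCF. No groups overlapped, and the mutated CTCF line lay between the untreated and the treated control. The same order of group means was shown by Nqo1 and also by Keap1, Srxn1 and Gsr, though in none of these did every step pass the test. The log2 fold change of Cyp1a1 with IAA was 3.89 (SE 0.18, adjusted p = 1.3e-20), and mutated CTCF was below wild-type CTCF by -3.27 (SE 0.18, adjusted p = 1.4e-17). Ahrr, the repressor induced by AHR, had 38.45 and 47.41, then 191.8 and 209.0, 268.4 and 280.3, and 64.78 and 73.16 in the same order of groups. It rose by 2.20 with IAA (adjusted p = 4.5e-16) and differed by -1.98 between mutated and wild-type CTCF (adjusted p = 2.9e-14). Cyp1b1, another AHR-induced cytochrome P450, was at 0.8358 and 3.448, 15.49 and 23.1, 41.96 and 38.51, and 4.179 and 1.977, which rests on as few as 1 read.

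The other AHR genes did not share that order. Tiparp, also an AHR target, fell by 0.21 with IAA (adjusted p = 4.9e-05), and Ahr itself fell by 0.21 (adjusted p = 0.0037), a call lost without the first untreated (-0.19, adjusted p = 0.057) or the second treated control library (-0.18, adjusted p = 0.053). Arnt, the partner of AHR, rose by 0.10 on the log2 scale with IAA (adjusted p = 0.035), a call lost with equal totals (0.05, adjusted p = 0.23). That value was 0.07 without the first untreated and 0.06 without the second treated control library, and the call was lost in each case. Arnt was higher by 0.21 with mutated than with wild-type CTCF (adjusted p = 4.3e-05). The letters of the core AHR motif, GCGTG, were absent from both strands of the windows of Nqo1, Nfe2l2 and Slc7a11. They were present in windows of Keap1, Gclm, Txnrd1 and Srxn1, and in 32.4% of all windows. Sequence more than 250 bases before or 50 bases after a start was not searched, and AHR binding was not measured. The part of AHR in the values of Nqo1 was not tested.

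A wider list of 30 NRF2 targets outside the 10 genes had 29 members in the table, Mgst1 not being listed. With IAA in the control line 12 of the 29 rose and 3 fell, where 19.4% of all tested genes rose and 18.4% fell, with a median log2 fold change of 0.10, beside 0.00 for all genes, and a range of -2.43 to 1.45. Prdx6, a peroxiredoxin, rose from 1314 to 1958 normalized read counts (0.58, adjusted p = 4.3e-13), Gpx2, a glutathione peroxidase, from 65.76 to 143.1 (1.11, adjusted p = 3.7e-07) and Cbr3, a carbonyl reductase, from 439.2 to 604.2 (0.46, adjusted p = 1.5e-06). In the other direction, Slc48a1, a heme transporter, fell from 102.8 to 18.28 (-2.43, adjusted p = 1.7e-12) and Ephx1, an epoxide hydrolase, from 381.8 to 280.8 (-0.44, adjusted p = 7.1e-05). Blvrb, biliverdin reductase B, fell from 285.3 to 231.1 (-0.30, adjusted p = 0.013), lost without the first untreated (-0.21, adjusted p = 0.21) or the second treated control library (-0.29, adjusted p = 0.066).

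Between the overexpression lines 14 of these 29 targets were lower with mutated CTCF and 2 higher, where 18.4% of all tested genes were lower and 16.3% higher, with a median of -0.19, beside -0.01 for all genes. Against the treated control 11 of the 29 were higher and 2 lower with wild-type CTCF (median 0.13), where 21.5% of all tested genes were higher and 10% lower. With mutated CTCF 5 were higher and 3 lower (median 0.03), where 22% were higher and 12.4% lower. The median over all genes was 0.06 in both. Ptgr1, a reductase of reactive aldehydes and prostaglandins, had 251.3 normalized read counts with mutated and 381.9 with wild-type CTCF (-0.61, adjusted p = 5.5e-06). Gstm1, a glutathione transferase with near-identical paralogs whose reads counting could split, had 158.4 and 245.4 (-0.63, adjusted p = 4.9e-05). In the untreated and treated control Ptgr1 had 234.5 and 291.2, and Gstm1 154.3 and 148.7, so for both genes the wild-type CTCF line was the highest group. Gpx2 had 81.0 and 112.6 (-0.47, adjusted p = 0.02), a call lost without the second wild-type CTCF library (-0.28, adjusted p = 0.3) or the first mutated CTCF library (-0.29, adjusted p = 0.27). Higher with mutated CTCF were Abcc1, a glutathione-conjugate exporter, at 3510 against 2958 (0.25, adjusted p = 5.4e-06), and Slc48a1, at 71.66 against 44.85 (0.69, adjusted p = 0.0093). The Slc48a1 call was lost without the second wild-type CTCF library (0.42, adjusted p = 0.23) or the first mutated CTCF library (0.66, adjusted p = 0.06). The count of lower targets was 7 without the second wild-type CTCF library and 7 without the first mutated CTCF library, and 8 without the mean-variance trend.

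**Figure D4:**
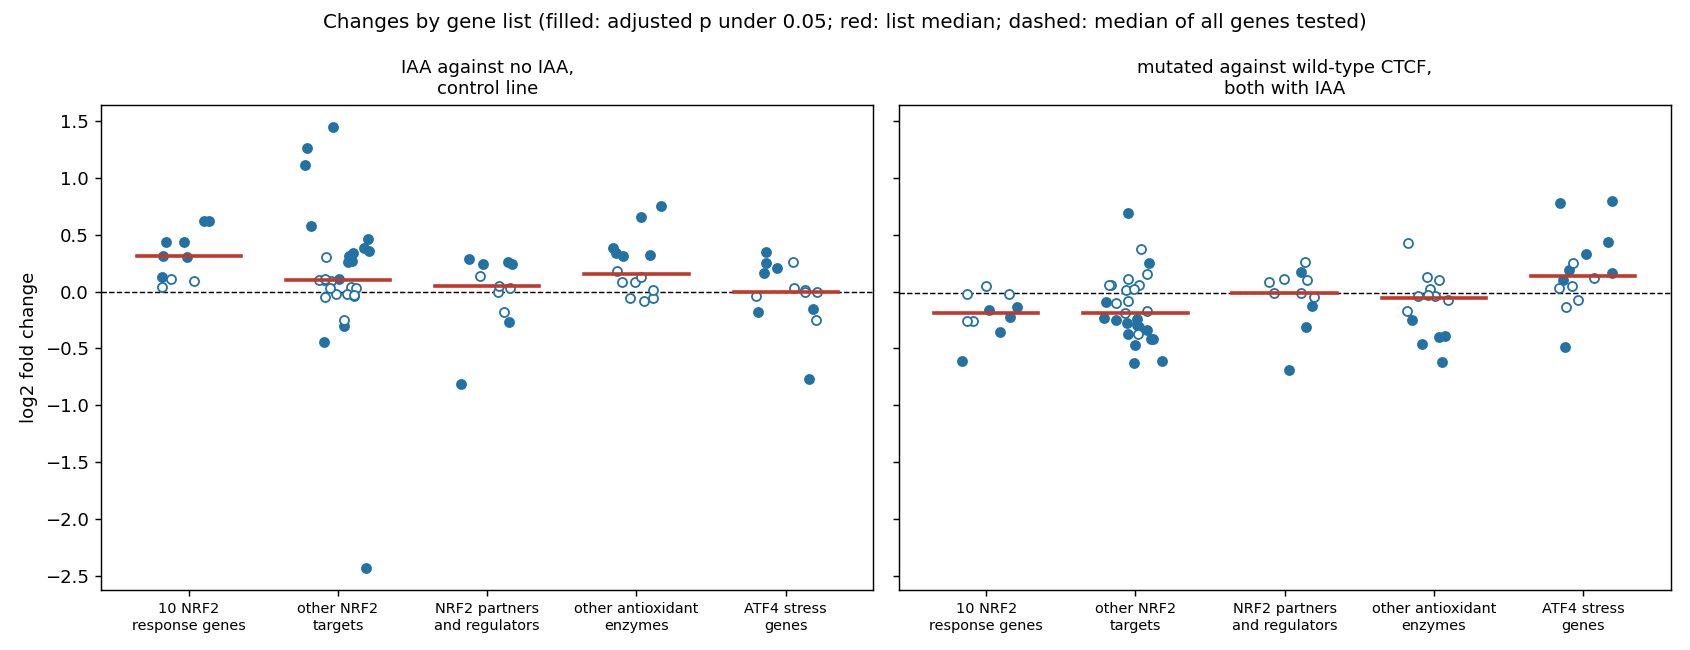
Log2 fold change (vertical axis, log2(value + 1) scale) of each gene in 5 lists for IAA in the control line (left) and mutated against wild-type CTCF (right); filled points have an adjusted p under 0.05, red bars are list medians and the dashed line is the median of all genes tested. The 10 response genes have medians of 0.31 and -0.19, and the other NRF2 targets 0.10 and -0.19.

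Genes for proteins that act with or on NRF2 changed in both directions. Of 11 partners and regulators 4 rose and 2 fell with IAA in the control line, where 19.4% of all tested genes rose and 18.4% fell. With mutated CTCF 1 was higher and 3 were lower than with wild-type CTCF, where 16.3% of all tested genes were higher and 18.4% lower. The medians were 0.05 and -0.01. Bach1, the repressor that competes with NRF2 for its sites, rose with IAA from 2024 to 2475 normalized read counts (0.29, adjusted p = 3.4e-06). It was lower by -0.13 with mutated than with wild-type CTCF (adjusted p = 0.026), lost without the second wild-type CTCF library (-0.06, adjusted p = 0.46) or the first mutated CTCF library (-0.11, adjusted p = 0.16). Its relative Bach2 fell from 2014 to 1675 (-0.27, adjusted p = 2.3e-05), and was lower with mutated (1186) than with wild-type CTCF (1913; -0.69, adjusted p = 9.4e-15). Of the small MAF partners, Mafk fell with IAA from 94.62 to 53.66 (-0.81, adjusted p = 0.00017). In the same comparison Mafg rose from 504.7 to 594.7 (0.24, adjusted p = 0.011) and Maff did not pass (-0.18, adjusted p = 0.59). Mafg was lower with mutated than with wild-type CTCF, at 574.5 against 713.6 (-0.31, adjusted p = 0.0013), which did not pass without the second wild-type CTCF library (-0.17, adjusted p = 0.14) or without the mean-variance trend (adjusted p = 0.077). The kinases Gsk3b and Fyn, both described as acting on NRF2 turnover or export, rose by 0.24 (adjusted p = 4.5e-09) and 0.26 (adjusted p = 0.00014) with IAA, the Fyn call being lost without the mean-variance trend (adjusted p = 0.061). Btrc, the receptor of the KEAP1-independent ligase, was higher by 0.17 with mutated CTCF (adjusted p = 0.00028), lost without the trend (adjusted p = 0.06), where 1 of the 11 was called between the lines, lower, and 0 higher.

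The genes whose profile over the 8 libraries was most like that of Nqo1 were outside the pathway. Likeness was the root mean square difference of log2(value + 1), each gene centred on its own mean, among 11859 genes with a mean of at least 50. The nearest were Prtg (0.072), H2bc9 (0.085), Sfmbt2 (0.086), Casd1 (0.091) and Crtc1 (0.093). Among the other response genes Srxn1 was nearest to Nqo1 (0.169), at rank 178, followed by Gsr (0.207) and Gclm (0.229). For Nfe2l2 the nearest were Myh9 (0.022), and Med15, Mettl2, Kdm5c and Trim71 (0.023 each).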

How the data were processed

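The authors deposited 1 table of normalized read counts per gene, a signal scale on which each library's whole reads are divided by 1 factor. From the values, 100% of entries in each library were whole multiples of 1 step (tolerance 0.1). Per the submitters' processing notes, Trim Galore, STAR, featureCounts, DESeq2 and mm10 were used, with versions and strand setting not given in the sources used here. Columns from outside the series numbered 0.

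The test was limma 3.58.1 (R 4.3.3) on log2(value + 1), 1 coefficient per group, all 8 libraries (4 residual degrees of freedom), empirical Bayes with a mean-variance trend, a minimum mean of 10, Benjamini-Hochberg adjustment per comparison. Fold changes are on that log2 scale, which understates changes of low genes. Positions are from GENCODE M21 on GRCm38, where 16917 of 16940 gene IDs were found.

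The 10 genes and the lists were chosen with earlier results of these data known. All 10 genes and the AHR list were named. From each other list, up to 3 highest and 3 lowest changes past the threshold were named, with a mean of at least 50 and groups that did not overlap, for IAA in the control line and mutated against wild-type CTCF, as were the 5 genes most like Nfe2l2 and Nqo1. Mafg and Maff with IAA, single cell markers and the neighbours of Nqo1 and Gsr were named outside this rule. Replicates differed by more than counting error (chi-square per degree of freedom 1.30 to 3.07). Ctcf itself was not analysed here. Alternatives were a pseudocount of 0.5 or of 10, a minimum mean of 50 or none, 2 rescalings, only the groups compared, no trend, a replicate block and each library left out.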

Additional observations from a re-analysis of the deposited data

How the results depend on the processing

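Over 17 alternative settings the 10 genes gave 1014 values in 6 comparisons, of which 923 kept direction and side of the threshold, 48 lost a call, 14 gained one and 29 changed sign. No value that changed sign was called. Calls held in every setting for 5 of 7 genes with IAA in the control line, 0 of 3 and 2 of 5 for wild-type and mutated CTCF against the treated control, 2 of 5 between the lines, and 5 of 7 and 2 of 6 for wild-type and mutated CTCF against the untreated control. Without the mean-variance trend, genes of the 10 called fell from 3 to 0 (wild-type CTCF against treated control), from 5 to 2 (mutated against wild-type CTCF) and from 6 to 2 (mutated CTCF against untreated control), and over all genes the counts were 3946 for IAA (5967 with the trend), 2379 (4991) and 3228 (5433) for wild-type and mutated CTCF against the treated control, 3263 (5489) between the lines and 3869 (5975) for mutated CTCF against the untreated control. Leaving out 1 library gave 5 to 7 of the 10 with IAA, 2 to 4 and 2 to 5 for wild-type and mutated CTCF against the treated control, 2 to 6 between the lines, and 6 to 7 and 4 to 6 against the untreated control. Over all genes wild-type CTCF against the treated control gave 3270 without its second wild-type CTCF library.

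Replicate numbers did not pair the libraries: the deviations of same-numbered libraries correlated at -0.022 to 0.028 over 6 pairs of groups. With the replicate number as a block 5 of the 10 genes instead of 3 were called for wild-type CTCF against the treated control, with Gclc (-0.10, adjusted p = 0.039) and Srxn1 (0.18, adjusted p = 0.046) added, and 6423 genes overall for IAA, 5981 between the lines.

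Changes of sign, under median-of-ratios rescaling and equal totals in that order, were Nqo1 (-0.04, -0.01) and Gsr (-0.04, -0.01) for wild-type CTCF and Txnrd1 (-0.02, -0.0043) for mutated CTCF against the treated control, and against the untreated control Gclc (-0.02, -0.04) for wild-type and Keap1 (-0.02, -0.06) and Nqo1 (-0.02, -0.05) for mutated CTCF. Nfe2l2 with IAA was -0.02 with equal totals. Leaving out 1 library, values that crossed 0 ranged as follows. For wild-type CTCF against the treated control they were -0.09 to 0.12 (Nqo1) and -0.0018 to 0.04 (Gsr), and for mutated CTCF -0.02 to 0.07 (Txnrd1). Between the lines they were -0.04 to 0.01 (Nfe2l2), -0.02 to 0.11 (Gclc) and -0.05 to 0.02 (Gclm). Against the untreated control they were -0.13 to 0.03 (Hmox1) and -0.02 to 0.10 (Gclc) for wild-type, and -0.07 to 0.12 (Keap1), -0.04 to 0.11 (Nqo1) and -0.04 to 0.32 (Slc7a11) for mutated CTCF. The cause of each of these changes was not tested.

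Count-based tests on reads recovered from the table, planned with edgeR and DESeq2, were not run. A minimum mean of 50 left out Slc7a11. Few reads limit Slc7a11, and 2 libraries per group limit all 10 genes.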

Other observations

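Antioxidant enzymes that were not among the NRF2 targets listed here gave a further group of 14 genes. Whether NRF2 acts on them was not tested. Of the 14, 6 rose and 0 fell with IAA in the control line, with a median log2 fold change of 0.15. Among all tested genes 19.4% rose and 18.4% fell, and 42.9% of the 14 were called in either direction, near the 37.7% of all tested genes. Gss, glutathione synthetase, which completes glutathione, rose from 601.0 to 1014 normalized read counts (0.75, adjusted p = 6.8e-14 by limma). Txnrd2, the mitochondrial thioredoxin reductase, rose from 209.5 to 332.3 (0.66, adjusted p = 6.8e-07) and Glrx, a glutaredoxin, from 289.9 to 378.7 (0.38, adjusted p = 0.00036). With equal totals 6 rose and 1 fell. Between the overexpression lines 5 of the 14 were lower with mutated than with wild-type CTCF and 0 higher (35.7% called, beside 34.7% of all tested genes). These included Gpx4, which reduces lipid peroxides (450.3 against 697.0; -0.62, adjusted p = 2.2e-08), Gpx1 (452.1 against 622.3; -0.46, adjusted p = 5.7e-05) and Gss (958.3 against 1261; -0.40, adjusted p = 8.4e-07). Without the mean-variance trend 3 of the 14 were lower, and Gpx1 was lost (adjusted p = 0.066).

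ATF4 drives another stress response, to amino acid shortage and unfolded proteins, and also acts on Slc7a11. Of 14 of its genes 4 rose and 3 fell with IAA, with a median of 0.00, where 19.4% of all tested genes rose and 18.4% fell. With mutated CTCF 7 were higher and 1 lower than with wild-type CTCF, with a median of 0.14, where 16.3% of all tested genes were higher and 18.4% lower. With IAA, Asns, asparagine synthetase, rose by 0.25 (adjusted p = 3.8e-07) and Slc3a2, a partner of amino acid carriers, by 0.21 (adjusted p = 0.00024; 0.053 without the mean-variance trend). Trib3, a pseudokinase, rose by 0.35 (adjusted p = 0.0069), lost without the second untreated (0.27, adjusted p = 0.13) or the second treated control library (0.25, adjusted p = 0.14). Slc7a5, an amino acid carrier, was lower by -0.18 (adjusted p = 0.022), lost without any 1 of the 4 control libraries (-0.17 to -0.20, adjusted p = 0.068 to 0.13). Aldh18a1, a proline synthesis enzyme, was lower by -0.15 (adjusted p = 0.035), lost without either untreated (-0.13, adjusted p = 0.21 and -0.18, adjusted p = 0.077) or the first treated control library (-0.07, adjusted p = 0.47), and Atf3 was lower by -0.77 (adjusted p = 0.0008; -0.51, adjusted p = 0.074, without the first treated control library). The count of 7 with IAA was 4 or 3 without the first or second untreated control library and 3 without the first treated control library, and 2, both higher, without the mean-variance trend. Between the lines Chac1, a glutathione-degrading enzyme, had 144.6 with mutated and 84.03 with wild-type CTCF (0.78, adjusted p = 6.8e-05), and Trib3 289.5 and 213.8 (0.44, adjusted p = 0.0012). Atf3 had 107.4 and 63.19 (0.80, adjusted p = 0.00068), lost without the first wild-type CTCF library (0.43, adjusted p = 0.064). Ddit4, an inhibitor of mTORC1 signalling, was lower, at 154.5 and 217.9 (-0.49, adjusted p = 0.00084). Without the first wild-type CTCF library the 7 higher and 1 lower between the lines became 3 higher and 2 lower, with a median of 0.06, and without the trend 3 higher and 1 lower.

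The nearest tested genes on either side of the response genes were counted as well, leaving out genes that overlap them. Some lay far away, those of Slc7a11 at 754.0 and 780.8 kb and those of Gclc at 209.7 and 122.9 kb. Around the 7 genes that rose with IAA, 2 of 14 neighbours rose, 6 fell and 6 did not pass, where 19.4% of all tested genes rose and 18.4% fell. Around the 5 that were lower with mutated CTCF, 2 of 10 neighbours were lower, 1 was higher and 7 did not pass, where 18.4% of all tested genes were lower and 16.3% higher. Nfat5, 8.7 kb from Nqo1, fell with IAA (-0.29, adjusted p = 4.7e-07). Nob1, 9.3 kb away on the other side, was lower by -0.23 with mutated CTCF (adjusted p = 0.0089), lost without the second wild-type CTCF library (-0.21, adjusted p = 0.057). Ubxn8, 10.6 kb from Gsr, changed in the direction of Gsr in both comparisons (0.52, adjusted p = 6.2e-06, and -0.50, adjusted p = 1.8e-05). Gtf2e2, 33.7 kb away on the other side, changed in the opposite direction to Gsr in both (-0.11, adjusted p = 0.026, and 0.26, adjusted p = 1.4e-06). The Gtf2e2 call with IAA was lost without the mean-variance trend (adjusted p = 0.14).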
